A study of Mus musculus with 56 samples.

Results

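Embryonic and perinatal contractile genes encode the sarcomere proteins that skeletal muscle uses before its adult isoforms take over. They were followed here as the 6 rows of the deposited expression table named Myh3, Myh8, Myl4, Myl6b, Tnnt2 and Actc1, out of 14871 rows. All 6 passed the filter on low values (a mean over libraries of 1 CPM, a count scaled to library size), which 13017 genes passed. After the protease vector, 5 of them (Myh3, Myh8, Myl4, Myl6b and Tnnt2) rose in homozygous and heterozygous muscle at 7 days and in homozygous muscle at 21 days, all 6 rose in wild-type muscle at 21 days, and none passed the test at 3 days or in wild-type muscle at 7 days. Myh3, Myh8 and Myl4 had the largest rises, with mean levels 11.8 to 73.4 times those of the saline groups. Actc1 followed a pattern of its own, and its rise in wild-type muscle at 21 days was lost when any of 3 single libraries was left out.

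Muscle builds its thick and thin filaments from gene families whose members are exchanged during development. Embryonic fibres use the myosin heavy chain Myh3, fibres around birth use Myh8, and both give way to adult fast or slow heavy chains. The light chains Myl4 and Myl6b, the cardiac type troponin T Tnnt2 and the cardiac type actin Actc1 are also made in developing skeletal fibres, and adult muscle that forms new fibres after injury makes many of these proteins again.

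The series holds 56 RNA-seq libraries of tibialis anterior, a fast muscle of the mouse hindlimb. Muscles received an injection of saline or of an adeno-associated virus (AAV) carrying a fusion of GFP with the TEV protease, and were taken 3, 7 or 21 days post injection (dpi). The titin mechanical knock-out (mKO) allele is known, from background and not from the labels, to place a site for this protease in titin, which wild-type (WT) titin lacks. The groups were WT saline (3 libraries at 3 dpi, 3 at 7 dpi and 4 at 21 dpi), WT AAV (5, 4 and 4), homozygous HOMO mKO saline (4, 4 and 4), HOMO mKO AAV (4, 5 and 4), and heterozygous HET mKO saline and AAV at 7 dpi (4 and 4). The HOMO mKO and HET mKO saline groups carry the allele without the protease, and every AAV group, WT included, received the vector. Neither the promoter of the vector nor the age, sex or strain of the mice is given in the sources used here, nor whether the libraries of a group came from separate mice, so the p-values measure the spread between libraries, which may in part be technical.

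Depth ran from 6.9 to 27.18 M reads (median 21.69 M), and the shallowest library was replicate 2 of HOMO mKO AAV at 7 dpi. Vector transcripts gave 56 to 34407 reads in the 30 AAV libraries and 0 to 6 in the 26 saline libraries. Adult fast genes marked the tissue as labelled: over all saline groups the summed level of 12 adult fast contractile genes stood at 132848 to 172354. The 4 heart genes present summed to 64.8 to 408 over the saline groups. Of the 3 heart genes tested none rose after the vector in any group and up to 3 fell. A few libraries stood apart from their groups in the levels below. These were replicate 3 of WT AAV at 3 dpi (high), replicate 2 of WT AAV at 21 dpi (low), and replicates 1 (high) and 4 (low) of HOMO mKO AAV at 21 dpi.

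To show what lies before the starts of genes that moved together, and of the one that did not follow them, 250 bases of promoter are printed for 4 members. The sequences are RefSeq's, build GRCm38.p6, 5′ to 3′ on the gene's strand and ending 1 base before RefSeq's start of transcription (for Tnnt2 the first of 2 starts), which can differ from the first base of the gene given below. Capitals mark matches to E-boxes (CANNTG, the core bound by MyoD family factors), MCAT (GGAATG), MEF2 and CArG elements, each on both strands, and TATAAA on the gene's strand. No match of a motif overlapped a match of another in these 4 windows.
Myh3, chr11:67078050-67078299, plus strand: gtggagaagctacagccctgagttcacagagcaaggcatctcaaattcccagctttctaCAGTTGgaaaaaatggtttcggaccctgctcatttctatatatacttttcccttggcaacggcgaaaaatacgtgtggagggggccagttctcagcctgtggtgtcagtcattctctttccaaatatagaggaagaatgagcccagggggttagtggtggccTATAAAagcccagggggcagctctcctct
Myh8, chr11:67276874-67277123, plus strand: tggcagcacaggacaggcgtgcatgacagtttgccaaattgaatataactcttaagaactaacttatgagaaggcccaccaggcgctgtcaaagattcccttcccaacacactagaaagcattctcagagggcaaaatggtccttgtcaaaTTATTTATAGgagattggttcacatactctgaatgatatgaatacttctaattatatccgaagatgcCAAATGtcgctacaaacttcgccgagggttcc
Tnnt2, chr1:135836084-135836333, plus strand: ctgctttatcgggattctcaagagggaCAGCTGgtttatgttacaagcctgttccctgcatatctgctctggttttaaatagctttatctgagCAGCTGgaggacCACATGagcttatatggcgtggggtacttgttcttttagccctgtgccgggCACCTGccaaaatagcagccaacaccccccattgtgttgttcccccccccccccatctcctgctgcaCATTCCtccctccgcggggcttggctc
Actc1, chr2:114052876-114053125, minus strand: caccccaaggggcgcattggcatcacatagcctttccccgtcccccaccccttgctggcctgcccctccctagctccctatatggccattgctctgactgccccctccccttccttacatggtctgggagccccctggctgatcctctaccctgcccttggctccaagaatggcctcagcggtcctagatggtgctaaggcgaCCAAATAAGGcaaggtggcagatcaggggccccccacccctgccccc
Myh3 held an E-box that begins 191 bases before its start and a TATAAA 29 bases before it. Myh8 held an E-box 32 bases and a MEF2 match 99 bases before its start. Tnnt2 held 4 E-boxes, 223, 157, 145 and 94 bases before its start, and an MCAT element at 27 bases. Actc1 held a CArG match 47 bases before its start and no E-box letters in this window. Of the same 250 base windows of all 32536 promoters in the RefSeq table, 66.2% held an E-box, 3.8% held 4 or more, 12.6% held MCAT, 2.9% MEF2, 1.5% CArG and 7.5% TATAAA. In the windows not printed, Myl6b held an E-box at 127 bases and Myl4 held none of these letters. These matches describe sequence and were not tested for binding or effect.

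Levels are given as the deposited normalised read counts, which are CPM of a scaled library total with 0.5 read added to each gene. Changes are differences of log2(normalised read count + 1) between group means, from a limma fit to all 56 libraries, and the added 1 makes them smaller for low genes. A gene is said to have risen or fallen where its p-value, adjusted by Benjamini-Hochberg over the 13017 genes, was under 0.05. Values per library are listed in replicate order, and the replicate numbers have no order in time.

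**Figure D1:**
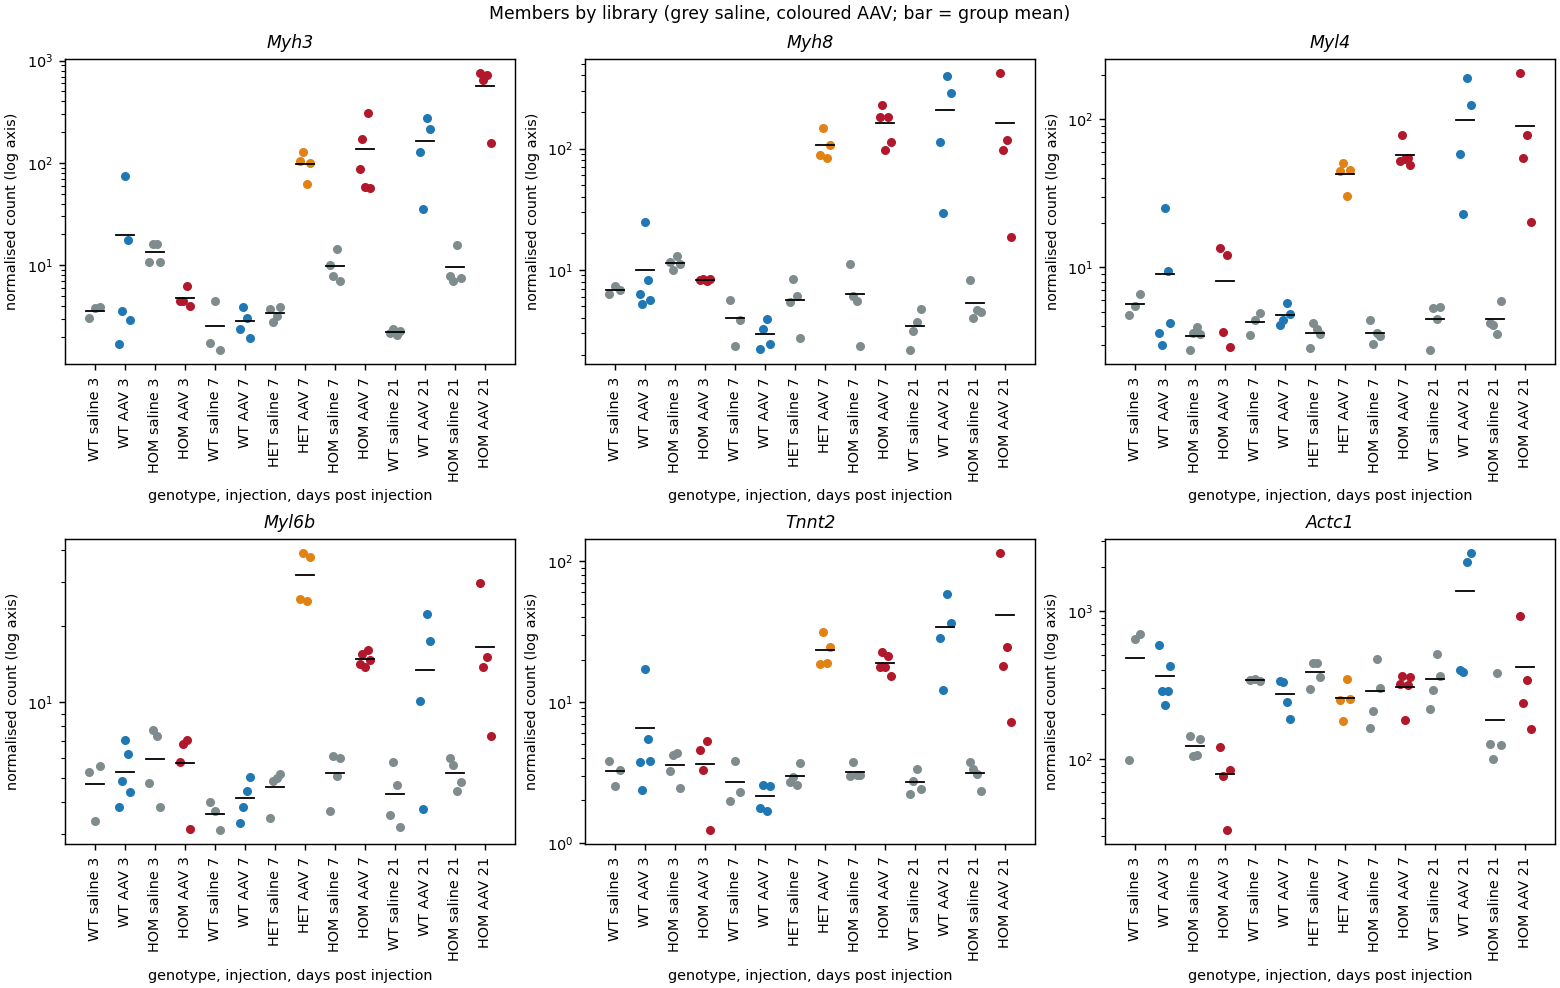
Normalised read count of each gene (log axis) in every library, by genotype (WT, HET for HET mKO, HOM for HOMO mKO), injection and days post injection. Grey points are saline, coloured points AAV, and bars are group means; Myh3, Myh8, Myl4, Myl6b and Tnnt2 stand high in HET and HOM AAV at 7 dpi and in most WT and HOM AAV libraries at 21 dpi, while Actc1 is spread over all groups.

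Myh3 (ENSMUSG00000020908, GRCm38 chr11:67078300-67102291, plus strand), the embryonic heavy chain, was scarce in WT muscle and rose after the vector in every group where any member rose. In WT saline its normalised read counts were 3.03, 3.86 and 3.95 at 3 dpi, 1.72, 4.44 and 1.47 at 7 dpi and 2.17, 2.36, 2.07 and 2.29 at 21 dpi. HOMO mKO saline gave 10.8, 15.97, 16.01 and 10.8, then 9.96, 7.91, 14.3 and 6.99, then 7.89, 7.003, 15.9 and 7.48 on the same days. All 12 of these homozygous libraries lay above all 10 WT saline libraries, whose highest value was 4.44. HET mKO saline at 7 dpi, with 3.73, 2.80, 3.17 and 3.88, overlapped WT saline of that day.

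With the vector, Myh3 in HOMO mKO muscle stood at 4.48, 4.47, 6.23 and 4.01 at 3 dpi, all 4 below the HOMO mKO saline libraries of that day. At 7 dpi it reached 87.4, 170.1, 58.4, 308 and 56.4 in HOMO mKO and 105, 127, 62.1 and 100.4 in HET mKO, with no overlap with saline in either genotype. At 21 dpi HOMO mKO AAV gave 758, 645, 718 and 158, the highest group mean of the study at 569.9 ± 279 (SD, n = 4), with replicate 4 far below the other 3. WT AAV gave 1.70, 3.54, 73.9, 17.7 and 2.93 at 3 dpi, where replicates 3 and 4 exceeded all WT saline libraries and the other 3 did not. It gave 2.41, 3.92, 3.05 and 1.95 at 7 dpi, within the saline range. At 21 dpi it gave 129, 35.7, 273 and 215, every library above every saline library.

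The log2 change of Myh3 was 3.39 ± 0.55 (SE; adjusted p = 3.9e-06) in HOMO mKO at 7 dpi, 4.46 ± 0.59 (SE; adjusted p = 5.3e-08) in HET mKO at 7 dpi, 5.60 ± 0.59 (SE; adjusted p = 4.7e-11) in HOMO mKO at 21 dpi and 5.33 ± 0.59 (SE; adjusted p = 1.4e-09) in WT at 21 dpi. Ranked by the size of the rise among 13017 genes, Myh3 was number 11, 4, 2 and 7 in these comparisons. At 3 dpi the changes did not pass, at -1.30 ± 0.59 (SE; adjusted p = 0.078) in HOMO mKO and 1.01 ± 0.60 (SE; adjusted p = 1) in WT. The WT value at 3 dpi ranged from 0.26 to 1.45 when each library was left out in turn. Without replicate 2 of WT AAV at 21 dpi, the change there was 5.94 (adjusted p = 9.3e-11).

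In HOMO mKO at 7 dpi 5 of 6 members rose, where 20.6% of all genes did. In HET mKO at 7 dpi it was 5 of 6 against 19.6%, in HOMO mKO at 21 dpi 5 of 6 against 29.7%, and in WT at 21 dpi 6 of 6 against 19.7%. Actc1 was the member that did not pass where only 5 did, and its call in WT at 21 dpi rested on few libraries. The same 5 members had no overlap with saline, and lay higher, in HOMO mKO at 7 dpi (where 16.6% of all genes did), HET mKO at 7 dpi (20.5%) and HOMO mKO at 21 dpi (21.5%). In WT at 21 dpi 4 did so (16.4% of all genes), since Myl6b and Actc1 overlapped. In HOMO mKO at 3 dpi 0 of 6 passed in either direction, where 34.6% of all genes did; 1 member, Myh3, had an unadjusted p under 0.05, and edgeR and DESeq2 on the recovered reads each called 0. In WT at 3 and 7 dpi limma called 0 of 6 and 0% of all genes, with 0 members and 430 (3 dpi) and 210 (7 dpi) genes at an unadjusted p under 0.05. There edgeR called 0 genes on either day and DESeq2 8 and 7 genes, with no member among them.

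**Figure D2:**
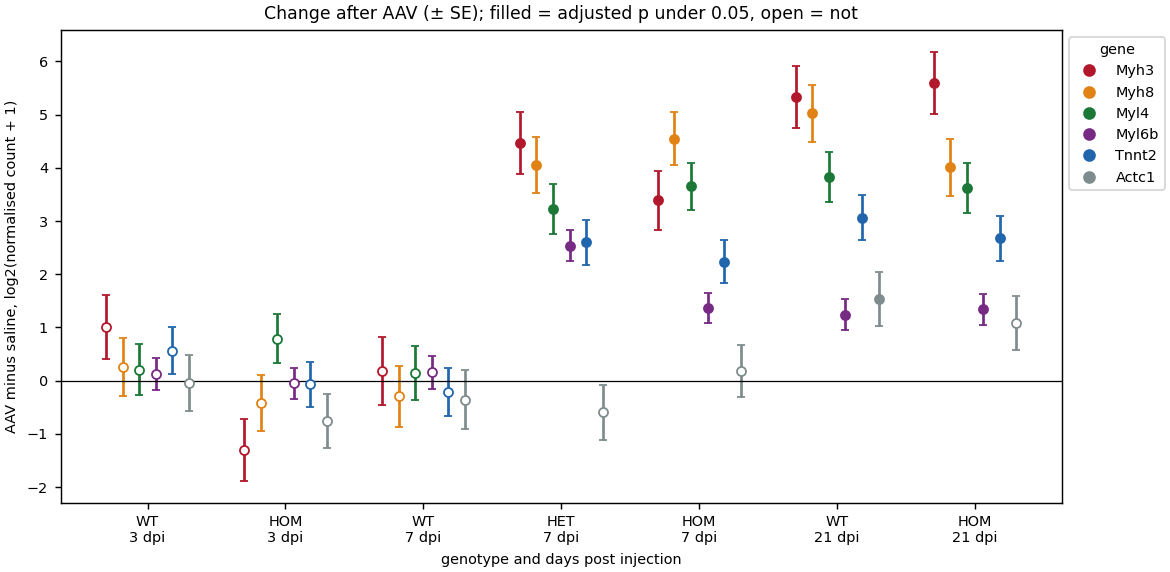
Change after AAV against saline of the same genotype and day, as the difference in log2(normalised read count + 1) with its standard error, for the 6 genes in 7 comparisons. Filled points passed the adjusted p threshold of 0.05; Myh3, Myh8, Myl4, Myl6b and Tnnt2 are filled in the 4 comparisons on the right, and Actc1 is filled in WT at 21 dpi.

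Myh8 (ENSMUSG00000055775, chr11:67277124-67308634, plus strand), the perinatal heavy chain, had saline values of 2.17 to 12.97 over all saline libraries. In HOMO mKO AAV it stood at 8.23, 8.41, 8.05 and 8.43 at 3 dpi, 183, 229, 97.99, 182 and 113 at 7 dpi and 419, 97.9, 117 and 18.8 at 21 dpi. HET mKO AAV at 7 dpi gave 87.9, 148, 84.2 and 107. In WT AAV the values were 6.34, 5.26, 24.6, 8.24 and 5.69 at 3 dpi, 2.22, 3.28, 3.92 and 2.47 at 7 dpi and 114, 29.5, 394 and 289 at 21 dpi. Every library of the 4 responding groups exceeded all saline libraries of the study, and at 3 dpi all 4 HOMO mKO AAV libraries lay below HOMO mKO saline (11.7, 10.02, 12.97 and 11.3), as for Myh3. Of all genes 13.4% lay lower without overlap in that comparison.

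Myh8 rose by 4.55 ± 0.50 (SE; adjusted p = 2.4e-09) in HOMO mKO at 7 dpi, the largest rise of all genes tested there. Its change was 4.05 ± 0.53 (SE; adjusted p = 5.3e-08) in HET mKO at 7 dpi, 4.01 ± 0.53 (SE; adjusted p = 1.4e-08) in HOMO mKO at 21 dpi and 5.02 ± 0.53 (SE; adjusted p = 7.3e-10) in WT at 21 dpi. Single libraries moved the later values: without replicate 1 of HOMO mKO AAV at 21 dpi the change was 3.31 (adjusted p = 5.7e-07), and without replicate 4 4.78 (adjusted p = 1.9e-11). In WT at 21 dpi it was 5.76 (adjusted p = 6.0e-12) without replicate 2. At 3 dpi the HOMO mKO difference of -0.42 ± 0.53 (SE; adjusted p = 0.57) did not pass. In a fit of the 2 HOMO mKO groups of 3 dpi alone, both Myh8 (adjusted p = 0.018) and Myh3 (adjusted p = 0.00094) were lower after the vector.

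The balance of the 2 developmental heavy chains differed between days in HOMO mKO muscle. The log2 ratio of Myh3 to Myh8, each with 1 added, was -0.75, -0.78, -0.32 and -0.91 in the HOMO mKO AAV libraries at 3 dpi, -1.06, -0.43, -0.74, 0.76 and -0.995 at 7 dpi and 0.85, 2.71, 2.61 and 3.00 at 21 dpi. All 4 libraries at 21 dpi lay above all 5 at 7 dpi and all 4 at 3 dpi, and replicate 1 was the lowest of the 4. By an exact two-sided permutation test the mean ratio at 21 dpi exceeded that at 7 dpi by 2.79 (p = 0.016, adjusted over 3 pairs of days p = 0.043, n = 4 and 5, smallest possible p 0.0079). It exceeded that at 3 dpi by 2.98 (exact permutation p = 0.029, which is the smallest 4 against 4 can give, adjusted p = 0.043). Between 7 and 3 dpi the difference was 0.20 (exact permutation p = 0.78, n = 5 and 4). The difference of 21 against 3 dpi missed the threshold when any of the 4 libraries of 3 dpi was left out, and that of 7 against 3 dpi turned negative without replicate 4 of 7 dpi. In HOMO mKO saline, where both genes were low, the ratio was 0.19 ± 0.34 (SD, n = 4) at 3 dpi, 0.66 ± 0.69 (SD, n = 4) at 7 dpi and 0.70 ± 0.66 (SD, n = 4) at 21 dpi. Its highest saline value at 21 dpi, 1.57, lay above AAV replicate 1 of that day, and AAV was not tested against saline for this ratio. The ratio was -0.13 ± 0.41 (SD, n = 4) in WT AAV at 21 dpi and -0.13 ± 0.29 (SD, n = 4) in HET mKO AAV at 7 dpi, where both genes stood near each other, and the difference from these groups was not tested.

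**Figure D3:**
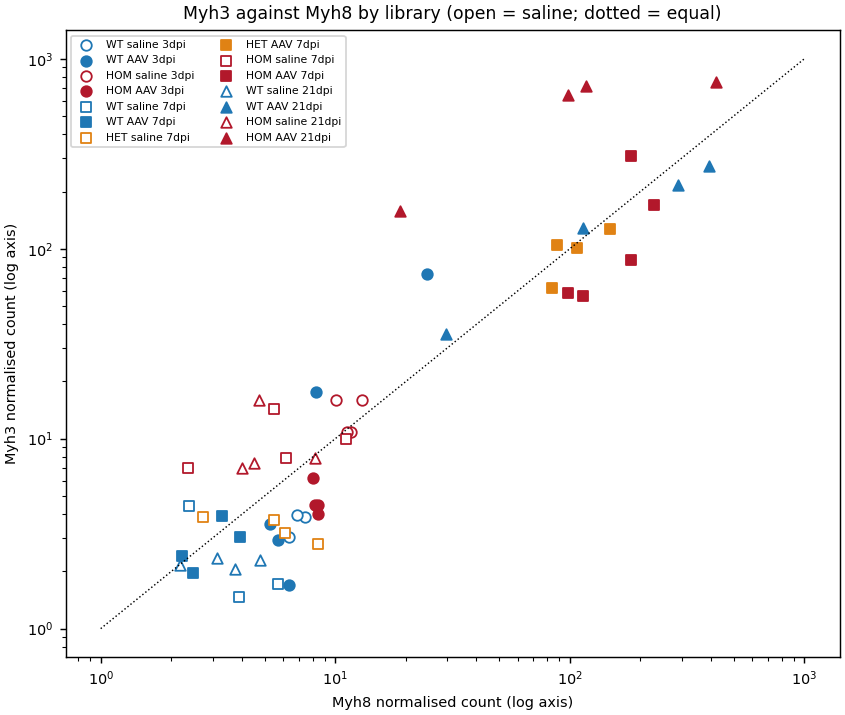
Myh3 against Myh8 normalised read count (both axes log) for all 56 libraries; open symbols are saline, filled symbols AAV, colour gives the genotype (blue WT, orange HET, red HOM) and shape the day. The 4 HOM AAV libraries at 21 dpi (red filled triangles) lie above the dotted line of equal counts, while HET and HOM AAV at 7 dpi and WT AAV at 21 dpi lie around it.

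Per kilobase of transcript, the developmental heavy chains remained a small part of all heavy chain RNA. Myh3 and Myh8 made up group means of 0.00801% to 0.0428% of the summed level of Myh1, Myh2, Myh3, Myh4, Myh7 and Myh8 in the saline groups. In the responding groups their share was 0.438% ± 0.178 (SD, n = 4) in HET mKO at 7 dpi, 0.776% ± 0.455 (n = 5) in HOMO mKO at 7 dpi and 0.914% ± 0.564 (n = 4) in WT at 21 dpi. HOMO mKO at 21 dpi had the highest mean, 2.53% ± 1.72 (n = 4, from 0.398% to 4.55%), of which Myh3 alone was 1.94% ± 1.14.

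Myh3 and Myh8 lie in the cluster of skeletal heavy chain genes on chromosome 11, in the order Myh3, Myh2, Myh1, Myh4, Myh8 and Myh13. None of the adult genes between them rose in the 4 comparisons where both rose. Myh4, the heavy chain of the fastest adult fibres, fell in the same 4 comparisons, by 0.93 ± 0.22 (SE; adjusted p = 0.00067) on the log2 scale in HOMO mKO at 7 dpi, 1.24 ± 0.23 (SE; adjusted p = 3.0e-05) in HET mKO, 0.97 ± 0.23 (SE; adjusted p = 0.00073) in WT at 21 dpi and 1.85 ± 0.23 (SE; adjusted p = 3.6e-09) in HOMO mKO at 21 dpi. Myh1, an adult fast heavy chain, had log2 changes of -0.49 ± 0.15 (SE; adjusted p = 0.0061), 0.23 ± 0.15 (SE; adjusted p = 0.24), -0.86 ± 0.15 (SE; adjusted p = 1.7e-05) and -0.56 ± 0.15 (SE; adjusted p = 0.0019) in that order. Myh2, the heavy chain of fast oxidative fibres, did not pass in any of the 4, with changes of -0.49, 0.80, -0.51 and 0.11. Myh13, the extraocular heavy chain at the end of the cluster, was -1.12 ± 0.25 (SE; adjusted p = 0.00042), -0.48 ± 0.27 (SE; adjusted p = 0.16), -0.81 ± 0.27 (SE; adjusted p = 0.014) and -1.50 ± 0.27 (SE; adjusted p = 5.6e-06). These coding sequences are closely alike, so how the submitters' counting divided reads that match several of them could move the low Myh3 and Myh8 values, and that was not tested.

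**Figure D4:**
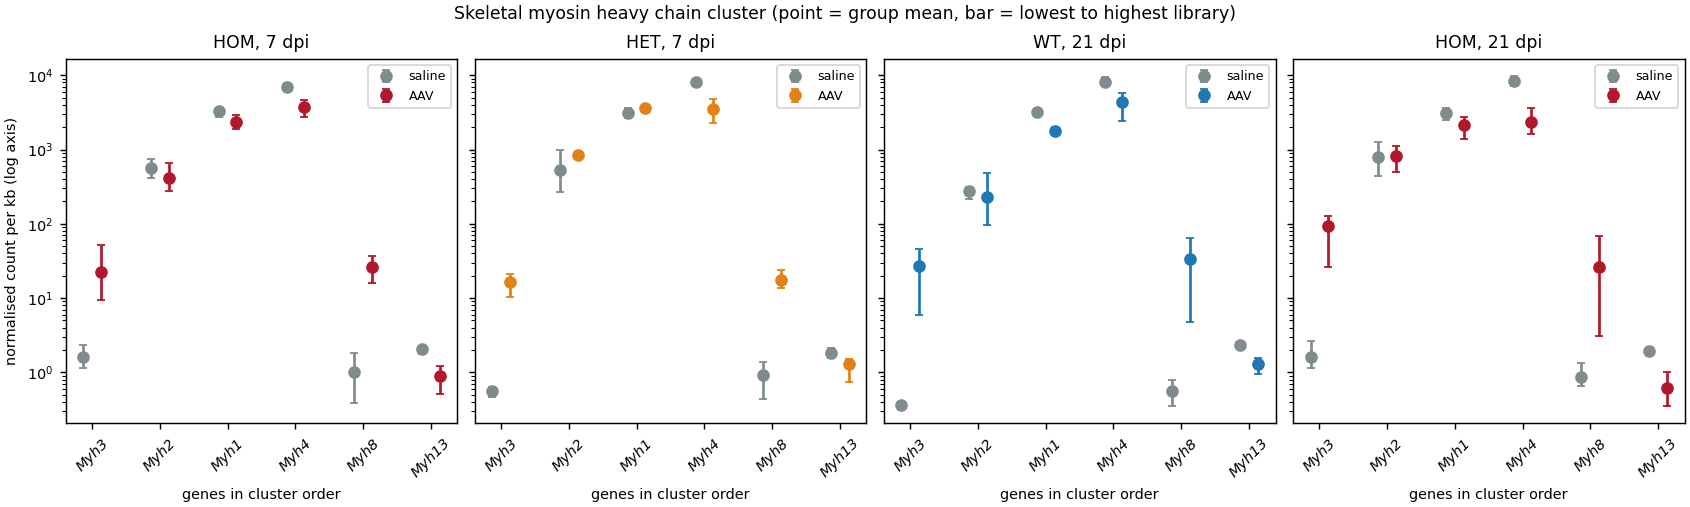
Normalised read count per kilobase of transcript (log axis) of the 6 chromosome 11 heavy chain genes in cluster order, in the 4 comparisons where Myh3 and Myh8 rose; points are group means and bars run from the lowest to the highest library. Myh3 and Myh8 at either side of the adult genes are higher with AAV (coloured) than saline (grey), and Myh4 is lower.

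Myl4 (ENSMUSG00000061086, chr11:104550663-104595753, plus strand), the essential light chain of embryonic and atrial muscle, rose with the heavy chains. Its saline values lay at 2.75 to 6.63 over all groups. HOMO mKO AAV gave 13.6, 3.66, 12.1 and 2.87 at 3 dpi, 52.3, 78.4, 53.9, 54.5 and 48.96 at 7 dpi and 205, 54.5, 78.1 and 20.1 at 21 dpi. HET mKO AAV at 7 dpi gave 44.4, 50.8, 30.1 and 45.1. The 7 dpi libraries formed a narrow band above all saline libraries, while at 3 dpi replicates 1 and 3 were above saline and replicates 2 and 4 within it. WT AAV gave 3.58, 2.96, 25.2, 9.41 and 4.18 at 3 dpi, 4.09, 4.41, 5.73 and 4.86 at 7 dpi and 58.1, 22.8, 191 and 124 at 21 dpi. The log2 changes were 3.65 ± 0.44 (SE; adjusted p = 1.5e-08) in HOMO mKO and 3.22 ± 0.47 (SE; adjusted p = 3.9e-07) in HET mKO at 7 dpi. At 21 dpi they were 3.62 ± 0.47 (SE; adjusted p = 7.5e-09) in HOMO mKO and 3.83 ± 0.47 (SE; adjusted p = 1.3e-08) in WT. At 3 dpi the HOMO mKO value of 0.79 ± 0.47 (SE; adjusted p = 0.19) did not pass.

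Myl6b (ENSMUSG00000039824, chr10:128494157-128498685, minus strand), an essential light chain also made in slow and non-muscle cells, had the smallest rises of the 5 and a different order of groups. Saline libraries held 3.10 to 7.74. HET mKO AAV at 7 dpi, with 25.6, 39.2, 25.1 and 37.7, lay above all 5 HOMO mKO AAV libraries of that day, with 14.1, 15.5, 13.8, 16.1 and 14.6. These 2 AAV groups were not tested against each other, and the share of all genes without such overlap is not given. The responses to the vector did not differ by limma in the fit of all groups (adjusted p = 0.11). They did with only the 4 groups compared in the fit (adjusted p = 0.0034). At 21 dpi HOMO mKO AAV gave 29.7, 13.8, 15.1 and 7.32 and WT AAV 10.1, 3.77, 22.3 and 17.5. Replicate 2 of WT AAV fell within the range of WT saline at 21 dpi (3.56, 5.76, 4.70 and 3.18), and the other 3 lay above it. At 3 dpi HOMO mKO AAV (5.76, 6.84, 7.09 and 3.13) and HOMO mKO saline (4.77, 7.74, 7.35 and 3.84) overlapped. The changes that passed were 2.53 ± 0.29 (SE; adjusted p = 3.2e-09) in HET mKO at 7 dpi, 1.36 ± 0.28 (SE; adjusted p = 0.00010) in HOMO mKO at 7 dpi, 1.34 ± 0.29 (SE; adjusted p = 0.00011) in HOMO mKO at 21 dpi and 1.24 ± 0.29 (SE; adjusted p = 0.00067) in WT at 21 dpi.

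Among the essential light chains (Myl1, Myl3, Myl4 and Myl6b, per kilobase), Myl4 held mean shares of 0.0386% to 0.0741% in the saline groups. After the vector it held 0.443% ± 0.145 (SD, n = 4) in HET mKO at 7 dpi, 0.605% ± 0.159 (n = 5) in HOMO mKO at 7 dpi, 1.05% ± 0.775 (n = 4) in WT and 1.11% ± 1.31 (n = 4) in HOMO mKO at 21 dpi. The HOMO mKO share of Myl4 at 21 dpi rested on replicate 1, without which the mean was 0.464%, below HOMO mKO at 7 dpi. The WT share was 0.690% without WT AAV replicate 3. Myl6b held 0.306% ± 0.111 in HET mKO and 0.142% ± 0.0140 in HOMO mKO at 7 dpi. Myl1, the adult fast essential light chain that made up nearly all the rest, differed by 0.02 ± 0.13 (SE; adjusted p = 0.92) in HOMO mKO and 0.29 ± 0.14 (SE; adjusted p = 0.089) in HET mKO at 7 dpi. Myl3, the slow and ventricular light chain, fell in HOMO mKO by 3.66 ± 0.51 (SE; adjusted p = 1.9e-07) at 7 dpi.

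On the thin filament, Tnnt2 (ENSMUSG00000026414, chr1:135836354-135852260, plus strand), the troponin T of heart and embryonic skeletal muscle, had saline values of 1.97 to 4.35. HOMO mKO AAV gave 4.57, 3.31, 5.32 and 1.23 at 3 dpi, 17.6, 22.7, 17.8, 21.2 and 15.3 at 7 dpi and 115, 18.1, 24.5 and 7.26 at 21 dpi. HET mKO AAV at 7 dpi gave 18.7, 31.2, 18.97 and 24.7. All libraries of HOMO mKO and HET mKO AAV at 7 dpi and of both AAV groups at 21 dpi exceeded every saline library. WT AAV gave 3.77, 2.39, 17.3, 5.48 and 3.78 at 3 dpi, 1.75, 2.59, 1.67 and 2.53 at 7 dpi and 28.4, 12.2, 58.8 and 36.6 at 21 dpi. Tnnt2 rose by 2.24 ± 0.40 (SE; adjusted p = 1.6e-05) in HOMO mKO and 2.60 ± 0.42 (SE; adjusted p = 3.2e-06) in HET mKO at 7 dpi. It rose by 2.67 ± 0.42 (SE; adjusted p = 5.5e-07) in HOMO mKO and 3.06 ± 0.42 (SE; adjusted p = 1.7e-07) in WT at 21 dpi. The HOMO mKO value at 21 dpi rests partly on replicate 1, without which it was 1.96 (adjusted p = 1.6e-05). Of the 3 troponin T genes per kilobase, Tnnt2 took 0.0158% to 0.0234% in saline groups and 0.181% ± 0.0456 (SD, n = 5) in HOMO mKO, 0.183% ± 0.0657 (n = 4) in HET mKO, 0.296% ± 0.157 (n = 4) in WT at 21 dpi and 0.615% ± 0.844 (n = 4) in HOMO mKO at 21 dpi, which was 0.197% without replicate 1. The adult fast Tnnt3 fell in each of the 4, by 0.39 to 1.15 on the log2 scale.

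Actc1 (ENSMUSG00000068614, chr2:114047282-114053548, minus strand), the actin of heart and developing skeletal muscle, was already present in saline muscle and passed the test against saline in WT at 21 dpi alone. WT saline gave 97.7, 647 and 698 at 3 dpi, 341, 349 and 333 at 7 dpi and 218, 292, 508 and 364 at 21 dpi. HOMO mKO saline gave 142, 104, 106 and 137, then 162, 209.5, 473 and 303, then 127, 99.3, 381 and 125. Replicate 1 of WT saline at 3 dpi was lower than every other WT library. With the vector, WT muscle gave 586, 289, 229.8, 286 and 428 at 3 dpi, 338, 332, 243 and 185 at 7 dpi and 401, 389, 2149 and 2487 at 21 dpi. HOMO mKO gave 119.5, 76.4, 32.95 and 84.1, then 318, 363, 183, 316 and 357, then 925, 239.7, 340.4 and 159.5 on those days, and HET mKO 251, 179.8, 348 and 256 at 7 dpi against 297, 448, 443 and 360.2 in saline. At 21 dpi replicates 3 and 4 of WT AAV stood above all other libraries of the study and replicates 1 and 2 within the WT saline range.

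The Actc1 change passed in WT at 21 dpi, at 1.53 ± 0.51 (SE; adjusted p = 0.014), and rested on few libraries. It was 1.14 (adjusted p = 0.092) without WT AAV replicate 3, 1.07 (adjusted p = 0.12) without replicate 4 and 1.34 (adjusted p = 0.053) without WT saline replicate 1. In a fit of the 2 WT groups of 21 dpi alone the adjusted p was 0.067. In HOMO mKO at 21 dpi the difference of 1.08 ± 0.51 (SE; adjusted p = 0.064) did not pass, and would have without HOMO mKO saline replicate 3, at 1.50 (adjusted p = 0.015), or AAV replicate 4, at 1.43 (adjusted p = 0.019). At 7 dpi Actc1 differed by 0.18 ± 0.48 (SE; adjusted p = 0.79) in HOMO mKO (95% interval -0.79 to 1.15) and -0.60 ± 0.51 (SE; adjusted p = 0.37) in HET mKO (-1.62 to 0.43). The first was -0.06 (adjusted p = 0.94) without HOMO mKO saline replicate 1, and the second passed, at adjusted p = 0.015, in a fit of the 2 HET mKO groups alone. Of Actc1 and Acta1, the adult skeletal actin, Actc1 took 5.74% ± 4.31 per kilobase in WT AAV at 21 dpi (SD, n = 4, from 1.90% to 9.77%) against 1.37% ± 0.526 (n = 4) in WT saline. Acta1 itself differed by -0.28 ± 0.15 (SE; adjusted p = 0.13) there. The 2 actins are close to identical in coding sequence and Acta1 is far more abundant per kilobase, so how shared reads were divided could move the Actc1 values, and that was not tested.

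**Figure D5:**
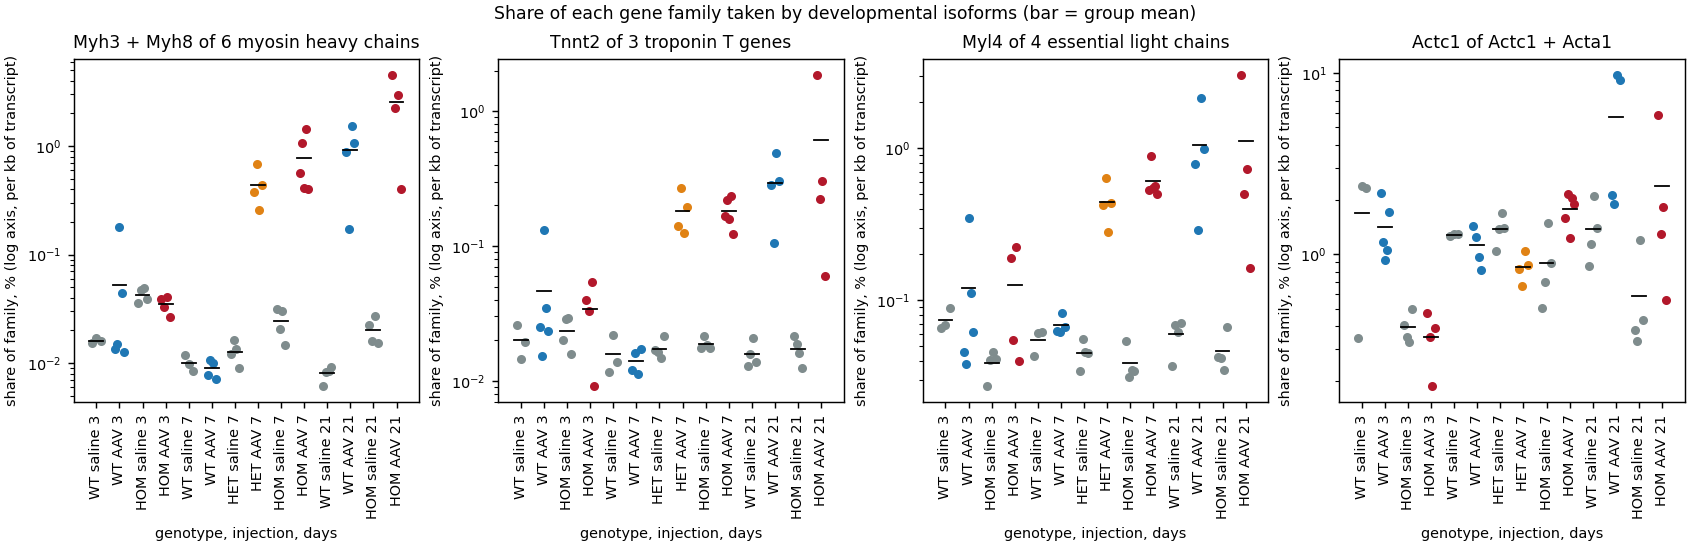
Share of each gene family's summed level per kilobase taken by developmental isoforms (percent, log axis) in every library, by genotype, injection and days; grey is saline, colours are AAV and bars are group means. Myh3 with Myh8, Tnnt2 and Myl4 take at most 0.0887% in the saline libraries and mean shares of 0.181% to 2.53% in the 4 responding groups, while the Actc1 share lies between 0.187% and 9.77%.

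In muscle without the protease, Myh3 was higher in every HOMO mKO library than in every WT library of the same day. At 3 dpi Myh8 was also higher without overlap (11.7, 10.02, 12.97 and 11.3 against 6.35, 7.42 and 6.84), and Myl4 was lower without overlap (2.77, 3.60, 3.93 and 3.52 against 4.79, 5.48 and 6.63). The other members overlapped at 3 dpi, as did all but Myh3 at 7 and 21 dpi. The HOMO mKO minus WT difference in saline muscle was 1.63 ± 0.63 (SE; adjusted p = 0.20) at 3 dpi, 1.65 ± 0.63 (SE; adjusted p = 0.20) at 7 dpi and 1.64 ± 0.59 (SE; adjusted p = 0.13) at 21 dpi, so no day passed, although the groups did not overlap on any day. Over all genes 7.71%, 7.01% and 7.72% were higher without overlap on these days, and 7.94% were lower without overlap at 3 dpi. On each day 0 of 6 members passed, against 2.28%, 2.08% and 3.32% of all genes. At an unadjusted p under 0.05 there were 2, 1 and 2 members, edgeR called 1, 0 and 0 (Actc1), and DESeq2 called 1, 0 and 1 (Actc1 at 3 dpi and Myh3 at 21 dpi). With only the 2 saline groups of a day in the fit, Myh3 passed on each day, at adjusted p = 0.0043, 0.029 and 0.00039, and Myh8 at 3 dpi, at adjusted p = 0.029.

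The mean of the 3 daily differences, a contrast chosen after these values were seen, was 1.64 ± 0.36 (SE; adjusted p = 0.00081) for Myh3 (n = 12 and 10). By that contrast 7.31% of all genes were higher. Actc1 was lower in HOMO mKO saline, at -0.99 ± 0.31 (SE; adjusted p = 0.026), where 5.04% of all genes were lower. On single days the Actc1 differences were -1.54 ± 0.55 (SE; adjusted p = 0.15), -0.37 ± 0.55 (SE; adjusted p = 0.91) and -1.07 ± 0.51 (SE; adjusted p = 0.33). Without WT saline replicate 1, the low library, the 3 dpi difference was -2.47 (adjusted p = 0.0077). Myh8 had a difference of 0.54 ± 0.32 (SE; adjusted p = 0.32) over the 3 days in the fit of all groups, and 0.54 ± 0.17 (SE; adjusted p = 0.031) in a fit of the saline groups alone. The other 3 members did not pass in either fit. In the fit of all groups their 95% intervals, from -0.82 to 0.67, include 0. In the fit of the saline groups alone the interval was -0.46 to -0.04 for Myl4, 0.06 to 0.55 for Myl6b and -0.06 to 0.37 for Tnnt2, so those of Myl4 and Myl6b leave out 0. In HET mKO against WT saline at 7 dpi 0 of 6 passed by limma, edgeR or DESeq2 and none had an unadjusted p under 0.05, against 0.2% of all genes by limma. Between saline muscle of 21 and 3 dpi, 0 of 6 passed in WT or HOMO mKO by limma, edgeR or DESeq2 and none had an unadjusted p under 0.05, against 0% and 0.0768% of all genes by limma. Without overlap, Myh3 lay lower at 21 than at 3 dpi in WT saline (2.07 to 2.36 against 3.03 to 3.95). Myh8 did so in WT saline (2.17 to 4.78 against 6.35 to 7.42) and HOMO mKO saline (4.01 to 8.23 against 10.02 to 12.97). Myh3 in HOMO mKO and the other members overlapped, and the share of all genes without overlap is not given here. A fit of the 2 HOMO mKO saline groups alone put Myh8 lower at 21 than at 3 dpi, with a difference of -1.010 (adjusted p = 0.046).

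The response to the vector was compared between genotypes as a difference of differences, which shares its libraries with the comparisons above. Vector transcript at 7 dpi differed between genotypes without overlap, at 14.3 to 29.0 in HOMO mKO AAV, 56.9 to 114 in HET mKO AAV and 158 to 324 in WT AAV. At 3 dpi it was 31.2 to 80.6 in HOMO mKO AAV and 3.31 to 48.4 in WT AAV, and at 21 dpi the genotypes overlapped. Its part in the responses was not tested. At 7 dpi the HOMO mKO response exceeded the WT response for 5 of 6 members, where 9.29% of all genes did. The excess was 4.84 ± 0.76 (SE; adjusted p = 2.7e-05) for Myh8, 3.51 ± 0.67 (SE; adjusted p = 0.00032) for Myl4 and 3.21 ± 0.84 (SE; adjusted p = 0.0056) for Myh3. It was 2.45 ± 0.61 (SE; adjusted p = 0.0036) for Tnnt2 and 1.21 ± 0.42 (SE; adjusted p = 0.035) for Myl6b. The Myl6b call was lost when any of 7 of the 16 libraries was left out: WT saline replicates 1 and 2, WT AAV replicates 1 and 2, HOMO mKO saline replicate 1, and HOMO mKO AAV replicates 2 and 4, with changes from 1.08 to 1.20. Actc1 had a difference of 0.53 ± 0.73 (SE; adjusted p = 0.64).

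HET mKO muscle also exceeded WT at 7 dpi for the same 5 members, where 10.3% of all genes did. The excess was 4.35 ± 0.78 (SE; adjusted p = 8.8e-05) for Myh8, 4.28 ± 0.86 (SE; adjusted p = 0.00035) for Myh3, 3.08 ± 0.69 (SE; adjusted p = 0.0011) for Myl4, 2.82 ± 0.62 (SE; adjusted p = 0.00098) for Tnnt2 and 2.38 ± 0.43 (SE; adjusted p = 9.3e-05) for Myl6b. Between HOMO mKO and HET mKO responses 0 of 6 members differed by limma, edgeR or DESeq2 (3.24% of all genes by limma), with 1, Myl6b, at an unadjusted p under 0.05. The 95% intervals of HOMO mKO minus HET mKO ran -2.69 to 0.55 for Myh3, -0.98 to 1.97 for Myh8, -0.87 to 1.72 for Myl4 and -1.54 to 0.80 for Tnnt2. For Myl6b the difference was -1.17 ± 0.40 (SE; adjusted p = 0.11), and it passed, at adjusted p = 0.0034, when only these 4 groups were in the fit.

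At 21 dpi the HOMO mKO and WT responses were not told apart: 0 of 6 members passed by limma, edgeR or DESeq2, none had an unadjusted p under 0.05, and 5.62% of all genes passed by limma. The difference was 0.27 ± 0.83 (SE; adjusted p = 0.89) for Myh3, with a 95% interval of -1.40 to 1.93. For Myh8 it was -1.02 ± 0.75 (SE; adjusted p = 0.47), with -2.53 to 0.50. The intervals ran -1.54 to 1.12 for Myl4, -0.73 to 0.94 for Myl6b, -1.59 to 0.81 for Tnnt2 and -1.90 to 0.99 for Actc1. The sign of the difference turned without WT AAV replicate 2 for Myh3 and Myl6b, without WT AAV replicate 3 or 4 for Myl4, without WT AAV replicate 4 for Actc1, without HOMO mKO AAV replicate 1 for Myl6b, without HOMO mKO AAV replicate 4 for Myl4 and Tnnt2, and without WT saline replicate 2 for Myl6b. With edgeR the difference was -0.31 for Myh3 and 0.08 for Tnnt2. At 3 dpi the Myh3 response was lower in HOMO mKO than in WT by 2.31 ± 0.84 (SE; adjusted p = 0.068), which did not pass. In that comparison 0 of 6 passed by limma, 1 had an unadjusted p under 0.05, and edgeR and DESeq2 each called 1 (Myh3), against 9.75% of all genes. It passed without WT AAV replicate 1, at -2.76 (adjusted p = 0.029), or replicate 5, at -2.62 (adjusted p = 0.044). Without WT AAV replicate 3, the library with Myh3 at 73.9, it shrank to -1.56 and did not pass. That was the smallest difference with any 1 library left out.

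Within HOMO mKO, the response grew from 3 to 7 dpi for 5 members, where 2.8% of all genes did. The growth was 4.97 ± 0.73 (SE; adjusted p = 1.8e-05) for Myh8, 4.70 ± 0.81 (SE; adjusted p = 0.00016) for Myh3, 2.86 ± 0.64 (SE; adjusted p = 0.0042) for Myl4, 2.30 ± 0.58 (SE; adjusted p = 0.011) for Tnnt2 and 1.42 ± 0.40 (SE; adjusted p = 0.026) for Myl6b. The Myl6b call was lost without HOMO mKO saline replicate 2 or 3 of 3 dpi, HOMO mKO AAV replicate 4 of 3 dpi or HOMO mKO saline replicate 1 of 7 dpi, at 1.20 to 1.31. From 7 to 21 dpi 0 of 6 passed by limma, edgeR or DESeq2, against 13.8% of all genes by limma, and 1 had an unadjusted p under 0.05. That was Myh3, at 2.20 ± 0.81 (SE; adjusted p = 0.058), with 2.74 (adjusted p = 0.0092) without HOMO mKO AAV replicate 4 of 21 dpi. Leaving out HOMO mKO AAV replicate 4 of 7 dpi gave 2.58 (adjusted p = 0.023), leaving out its replicate 2 gave 2.36 (adjusted p = 0.049), and leaving out HOMO mKO saline replicate 3 of 21 dpi gave 2.45 (adjusted p = 0.047). Myh8 differed by -0.54 ± 0.73 (SE; adjusted p = 0.68) between the same days, and by 0.23 (adjusted p = 0.84) without HOMO mKO AAV replicate 4 of 21 dpi.

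In order of group means, HOMO mKO AAV at 21 dpi was first for Myh3 and Tnnt2, WT AAV at 21 dpi for Myh8, Myl4 and Actc1, and HET mKO AAV at 7 dpi for Myl6b. The first place for Tnnt2 rested on replicate 1: without it the mean was 16.6, below those of the other 3 responding groups, with WT AAV at 21 dpi first. Without WT AAV replicate 3 of 21 dpi, or without HOMO mKO AAV replicate 4 of 21 dpi, HOMO mKO AAV at 21 dpi was first for Myh8 and Myl4, and also for Myl4 without its replicate 2. The 4 groups with the highest means were the 2 AAV groups at 21 dpi and the HOMO mKO and HET mKO AAV groups at 7 dpi for each gene but Actc1. Each of these 4 overlapped the next lower among them, for all 5 genes. Below them, the fifth group did not overlap the fourth for Myh8 and Myl4 and did for Myh3, Myl6b and Tnnt2. For Actc1, WT AAV at 21 dpi had the highest mean, 1356 ± 1119 (SD, n = 4), and overlapped the next, WT saline at 3 dpi, at 481 ± 333 (SD, n = 3). The lowest mean was that of HOMO mKO AAV at 3 dpi, 78.3 ± 35.6 (SD, n = 4).

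Across the 14 group means of log2(normalised read count + 1), the 5 members other than Actc1 had pairwise Pearson correlations of 0.87 to 0.98. Actc1 had 0.16 to 0.42 with them. Among 10313 genes compared, those whose group means were most like Tnnt2 were Mymk (0.99), which encodes the myoblast fusion protein myomaker, then Myh8 and Myl4 (0.98 each). For Myl4 they were Mymk (0.98), Tnnt2 (0.98) and Jpt1 (0.97), and for Myh8 Tnnt2 (0.98), Mymk (0.97) and Mest (0.97). Myh3 was most like Timp2 (0.98), an inhibitor of matrix metalloproteases, Zfp365 (0.97) and Hes6 (0.96). Myl6b was most like Nabp1 (0.98), Lum (0.96), a matrix proteoglycan, and Krt8 (0.95), a keratin. Actc1 had no close match, with Fgfrl1 first at 0.89. Mymk, Krt8 and Zfp365 were scarce in saline, with group means of 0.084 to 0.31, 0.026 to 0.17 and 0.18 to 1.39. Genes this low passed the filter mainly through AAV groups where the members were also high, so their coefficients are not independent of the filter. All these coefficients are over 14 points from the same libraries and describe shared level patterns only.

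Other genes of the muscle lineage and of other cells are given by lists, whose counts are to be read against the share of all genes. That share was 17.4% higher and 17.2% lower in HOMO mKO at 3 dpi, 20.6% and 22.5% at 7 dpi, and 29.7% and 29.6% at 21 dpi. It was 19.6% and 20.8% in HET mKO at 7 dpi and 19.7% and 21.3% in WT at 21 dpi.

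The myogenic genes moved in part with these members, in both directions. Of 16 genes tested from a list of satellite cell, myoblast and fusion genes, 7 rose and 4 fell in HOMO mKO at 7 dpi (median log2 change 0.13), 8 and 1 in HET mKO at 7 dpi (0.36), 5 and 3 in WT at 21 dpi (0.20) and 8 and 3 in HOMO mKO at 21 dpi (0.27). The median of all genes lay between -0.01 and 0.00 in all of these. Mymk rose by 2.99, 3.30, 4.02 and 3.92 in that order. Its group means were 0.084 to 0.31 in saline and 9.4 to 27.4 in these 4 AAV groups. It therefore passed the filter mainly through the groups where it was high, and its rise is not independent of the filter. Myog, the myogenin factor of differentiating myoblasts, rose by 2.24, 2.93, 2.23 and 3.35. Des, the intermediate filament desmin, rose by 0.99 ± 0.11 (SE; adjusted p = 1.2e-09) and Itga7, the muscle laminin receptor, by 1.09 ± 0.16 (SE; adjusted p = 8.4e-07) in HOMO mKO at 7 dpi.

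In HOMO mKO at 3 dpi, when no contractile member passed, 5 of the 16 myogenic genes rose and 4 fell (median 0.02), and 34.6% of all genes moved in either direction. Those that rose included Myog at 2.02 ± 0.42 (SE; adjusted p = 0.00018), Myod1, an early factor of the lineage, at 1.15 ± 0.25 (SE; adjusted p = 0.00041), and Itga7 at 1.11 ± 0.17 (SE; adjusted p = 2.6e-06). Those that fell included Jam3 at -0.43 and Pax7, the satellite cell factor, at -0.39, named after their values were seen. Of 12 genes of denervated or immature muscle membrane, 5 rose and 1 fell there (median 0.86), led by Runx1, a factor induced in denervated muscle, at 2.69 ± 0.31 (SE; adjusted p = 1.1e-08). Macrophage RNA also rose in that comparison, as given below, and which cells of the whole muscle made Runx1 was not tested. The denervation list had 6 higher and 0 lower in HOMO mKO at 7 dpi (0.62), 8 and 1 in HET mKO (0.96), 7 and 1 in WT at 21 dpi (0.79) and 9 and 0 in HOMO mKO at 21 dpi (1.57). Chrng, the fetal acetylcholine receptor subunit, rose by 1.75 ± 0.46 (SE; adjusted p = 0.0018) in HOMO mKO at 7 dpi and 3.32 ± 0.48 (SE; adjusted p = 9.6e-08) at 21 dpi. Ncam1, the neural cell adhesion molecule of immature and denervated fibres, rose by 3.05 ± 0.31 (SE; adjusted p = 1.2e-10) in HET mKO at 7 dpi.

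Adult fast contractile genes went the other way. Of 12 tested, 8 fell and 0 rose in HOMO mKO at 7 dpi (median -0.49), 5 fell and 1 rose in HET mKO (-0.27), 7 fell and 0 rose in WT at 21 dpi (-0.47) and 9 fell and 0 rose in HOMO mKO at 21 dpi (-0.81). In HOMO mKO at 3 dpi 11 fell and 0 rose (-0.47), when no developmental member had passed and 17.2% of all genes fell.

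Slow fibre genes moved both ways. Outside HOMO mKO at 3 dpi, their counts stood little above the share of all genes or below it. Of 9 tested, 0 rose and 4 fell in HOMO mKO at 3 dpi (median -0.98), 0 and 2 at 7 dpi (-0.32) and 3 and 3 at 21 dpi (0.28), with 2 and 0 in HET mKO at 7 dpi (0.20) and in WT at 21 dpi (-0.28). Tnni1, the slow troponin I, rose by 2.89 ± 0.65 (SE; adjusted p = 0.00036) in HET mKO at 7 dpi, 3.05 in WT and 2.97 in HOMO mKO at 21 dpi. Tnnt1, the slow troponin T, rose by 2.62 ± 0.54 (SE; adjusted p = 0.00013) in HET mKO at 7 dpi and 1.69 in WT at 21 dpi. Myl3 fell in HOMO mKO on all 3 days, and Mybpc1, a slow type myosin binding protein, fell by 0.78 ± 0.12 (SE; adjusted p = 2.5e-06) at 3 dpi. The summed level of the 9 genes, most of it Mybpc1, did not overlap saline in HOMO mKO at 3 dpi (2211 to 2820.3 against 4037 to 5313) and 21 dpi (2271 to 3426 against 3895 to 4202), lower after the vector on both days. In whole muscle, fewer cells of a type and less RNA per cell cannot be told apart.

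Other cell types moved in the same groups. Of 14 macrophage markers, 13 rose in HOMO mKO at 3, 7 and 21 dpi and in WT at 21 dpi, and 12 in HET mKO at 7 dpi. Their summed level was 382 to 1024 in HOMO mKO AAV at 3 dpi, 324 to 523 at 7 dpi and 323 to 2955 at 21 dpi, against 80.9 to 179.9, 78.1 to 121 and 45.4 to 106 in saline. It was 245 to 439.9 in HET mKO AAV and 68.2 to 121 in HET mKO saline, and 346 to 1117 in WT AAV at 21 dpi and 70.8 to 89.8 in WT saline. Of 10 proliferation genes 8 passed the filter, and all 8 rose in these 5 comparisons. In HOMO mKO the 10 summed to 3.62 to 9.17 in saline and 22.4 to 64.5 with AAV at 3 dpi, and 2.83 to 6.84 and 24.8 to 186 at 21 dpi. Genes this low passed the filter in part through the groups where they were high, so this count is not independent of the filter. Of 10 T and natural killer cell markers 7 passed the filter on low values. These 7 rose at 21 dpi in both genotypes, while 5 of 7 rose in HOMO mKO and 0 of 7 in HET mKO at 7 dpi. At 21 dpi all 10 summed to 0.67 to 2.44 in WT saline and 1.08 to 1.64 in HOMO mKO saline, against 15.4 to 80.2 and 41.1 to 145 with AAV. Genes this low passed the filter mainly through the AAV libraries of 21 dpi, so the counts of that day were largely set by the filter. Of 10 markers of fibro-adipogenic progenitors, the connective tissue cells of muscle, 6 rose and 0 fell in HOMO mKO and 5 rose and 0 fell in HET mKO at 7 dpi, 7 and 0 in WT and 6 and 1 in HOMO mKO at 21 dpi, and 2 and 1 in HOMO mKO at 3 dpi, which is near the share of all genes. Endothelial markers fell in all 5 comparisons, from 5 of 8 in HOMO mKO at 3 dpi to 8 of 8 in both genotypes at 21 dpi. Of 6 Schwann cell markers none rose, and 3 fell in HOMO mKO at 7 dpi and 4 in WT at 21 dpi.

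The summed level of 8 smooth muscle and pericyte genes was higher without overlap after the vector in HOMO mKO at 7 dpi (5953 to 6794 against 3605 to 3981), HET mKO at 7 dpi (5702 to 6832 against 3095 to 3654), WT at 21 dpi (3621 to 4607 against 3119.7 to 3351) and HOMO mKO at 3 dpi (4189 to 5436 against 3743 to 3989.9), and overlapped in HOMO mKO at 21 dpi (3554 to 5279 against 3496 to 4014). Most of that sum was Des, which skeletal fibres also make and which is on the myogenic list too. Des was the 1 gene of the 8 to rise in HOMO mKO at 3 and 7 dpi, HET mKO at 7 dpi and WT at 21 dpi, where 2, 3, 2 and 3 of the others fell, and in HOMO mKO at 21 dpi 2 rose and 4 fell. Rgs5, a pericyte gene, fell by 0.81 ± 0.15 (SE; adjusted p = 2.1e-05) and Myh11, the smooth muscle heavy chain, by 0.70 ± 0.18 (SE; adjusted p = 0.0013) in HOMO mKO at 7 dpi.

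At 3 dpi in HOMO mKO the macrophage and proliferation genes had risen while 0 of the 6 contractile members passed, and the part of these other cell types in the members' levels was not tested.

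At 21 dpi the libraries highest and lowest in most developmental genes were also the highest and lowest of their group in macrophage RNA. In HOMO mKO AAV, replicate 1, highest for all 6 members, had a macrophage sum of 2955 and vector transcript at 127. Replicate 4, the lowest for all 6, had 323 and 866. In WT AAV, replicate 3, highest for 5 members, had 1117 and 111, and replicate 2, lowest for all 6, had 346 and 999. Vector transcript was not highest in the libraries lowest for the members. It was highest in HOMO mKO AAV replicate 3, at 1103 with Myh3 at 718, and in WT AAV replicate 1, at 1267 with Myh3 at 129. HOMO mKO AAV replicate 2 had 465 and WT AAV replicate 4 had 648. The WT AAV library at 3 dpi with Myh3 at 73.9 had a macrophage sum of 328 where the other 4 had 135 to 199, and a proliferation sum of 23.3 where they had 3.45 to 10.97. These are values of single libraries, and their part in the members' levels was not tested.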

How the data were processed

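RNA was extracted from frozen tibialis anterior with TRI reagent and made into directional libraries with a NEBNext Ultra II kit, per the labels' protocols. Per the submitters' processing notes, the tools were FastQC, Bowtie, RSEM and limma, on GRCm38 (mm10). How reads that match several genes were shared out was not stated there. The authors deposited a linear, normalised signal per gene, in CPM of a scaled library total with 0.5 read added. Undoing that scaling gave whole reads for 99.999% of values within 0.02 read, so depth could be recovered. These recovered reads were used for edgeR 4.0.16 and DESeq2 1.42.0 as alternatives.

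The test was limma 3.58.1 (R 4.3.3) with a mean trend on log2(signal + 1), with 1 mean for each of the 14 groups over 56 libraries. It covered the 13017 genes whose mean reached 1 CPM, leaving out 1853, and p-values were adjusted by Benjamini-Hochberg. Other settings were pseudocounts of 0.25 and 4, no filter, a mean of at least 5, median-of-ratios and quantile scaling, only the groups compared, a replicate block, and leaving out each library. No pair of libraries agreed within sampling noise (lowest reduced chi-square of a pair within a group 7.92). Annotation was GENCODE M21 on GRCm38, which held 14861 of the gene identifiers and lacked 10, with the longest top-ranked APPRIS coding transcript of each gene for values per kilobase. The statistics were tested on simulated data.

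The members and gene lists were chosen with earlier results of these data known. Genes named beside the members are up to 4 of a list with the smallest p in a comparison, the 3 genes most like each member over group means, the other chromosome 11 heavy chains and the adult paralogs.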

Additional observations from a re-analysis of the deposited data

Results flagged for a closer look

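Among 72 sets of 4 or 5 libraries (6 genes in 12 groups), 7 held a library far from the others of its group by Dixon's criterion, where chance alone gives about 1 in 20. The high libraries were Myh3 in HOMO mKO saline at 21 dpi, replicate 3 (15.9), Myh8 in WT AAV at 3 dpi, replicate 3 (24.6), Myl4 in HOMO mKO AAV at 7 dpi, replicate 2 (78.4), and Tnnt2 in HOMO mKO saline at 7 dpi, replicate 2 (3.78). The low ones were Myh3 in HOMO mKO AAV at 21 dpi, replicate 4 (158), Myl6b in HET mKO saline at 7 dpi, replicate 1 (3.46), and Actc1 in HOMO mKO AAV at 7 dpi, replicate 3 (183). Replicate 2 of HOMO mKO AAV at 7 dpi was the shallowest library.

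The response to the vector differed between genotypes or days, by the tested difference of log2 changes, for 5 genes in each of 3 comparisons. HOMO mKO exceeded WT at 7 dpi by 3.21 for Myh3, 4.84 for Myh8, 3.51 for Myl4, 1.21 for Myl6b and 2.45 for Tnnt2. HET mKO exceeded WT at 7 dpi by 4.28 for Myh3, 4.35 for Myh8, 3.08 for Myl4, 2.38 for Myl6b and 2.82 for Tnnt2. In HOMO mKO, the response at 7 dpi exceeded that at 3 dpi by 4.70 for Myh3, 4.97 for Myh8, 2.86 for Myl4, 1.42 for Myl6b and 2.30 for Tnnt2. These 3 comparisons share libraries and are not independent of each other.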

How the results depend on the processing

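The calls of Myh3, Myh8, Myl4 and Tnnt2 against saline in HOMO mKO and HET mKO at 7 dpi and in WT and HOMO mKO at 21 dpi held under the alternatives tried. The number of members called went from 0 to 1 for the HOMO mKO response at 21 against 7 dpi (Myh3, with a pseudocount of 4 or quantile normalisation). It went to 1 for HOMO mKO against WT responses at 3 dpi (Myh3, -3.94 with edgeR, -3.97 with DESeq2), and for saline HOMO mKO against WT to 1 at 3 dpi (Actc1, with edgeR or DESeq2) and 1 at 21 dpi (Myh3, with DESeq2). With only the groups compared in the fit it went from 0 to 2 in HOMO mKO at 3 dpi, to 1 for HOMO mKO against HET mKO responses, to 2, 1 and 1 for saline HOMO mKO against WT at 3, 7 and 21 dpi, and to 1 for saline HOMO mKO at 21 against 3 dpi. The log2 changes were the same in these fits, which estimate the spread from fewer groups. For the mean Myh3 difference in saline muscle, 1.64, the SE was 0.36 with all groups and 0.15 with the saline groups alone. The cause of the other moves was not tested.

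Some differences that did not pass changed sign on recovered reads. HOMO mKO against WT responses at 21 dpi were -0.31 with edgeR and -0.31 with DESeq2 for Myh3, and 0.077 and 0.062 for Tnnt2, and Myh8 at 21 against 7 dpi in HOMO mKO was 0.31 and 0.26. Myl6b in HOMO mKO against WT at 7 dpi had an adjusted p of 0.051 with edgeR. Actc1 in HOMO mKO at 21 dpi passed with quantile normalisation (1.47), edgeR (1.22) and DESeq2 (1.21). Quantile normalisation put the median of all genes in HOMO mKO at 21 dpi at -0.12.

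Leaving out 1 library at a time gave 0 to 1 members called for HOMO mKO against WT responses at 3 dpi, for saline HOMO mKO against WT at 3 dpi, and for the HOMO mKO response at 21 against 7 dpi. Values that crossed 0 were Actc1 in HOMO mKO at 7 dpi (-0.057 to 0.46), Myh8 at 21 against 7 dpi in HOMO mKO (-1.24 to 0.23), and 5 of the HOMO mKO against WT responses at 21 dpi: Myh3 (-0.34 to 0.80), Myl4 (-0.77 to 0.34), Myl6b (-0.35 to 0.41), Tnnt2 (-1.10 to 0.17) and Actc1 (-0.95 to 0.0042). The log2 ratio of Myh3 to Myh8 in HOMO mKO AAV ranged from -0.11 to 0.34 for 7 against 3 dpi, and from 2.75 to 3.46 for 21 against 3 dpi, where leaving out a library of 3 dpi put the exact permutation test above the adjusted threshold.

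Replicate numbers were not taken as pairs, since that needs every pair of the same number and day to have deviations correlated over 0.1. Of such pairs 12 of 26 did (median 0.073, lowest -0.241), more often than the 13 of 85 other pairs (median -0.05), so same-numbered libraries agreed weakly. With the replicate block, Myh3 for HOMO mKO against WT responses at 3 dpi was -2.59 and passed, so 1 member was called, and the count of members called moved in no other comparison. The block is set within days and gives no value for the saline comparisons of 21 with 3 dpi. The lowest read counts in any library were 19 for Tnnt2, 31 for Myh3, 41 for Myh8, 45 for Myl4, 49 for Myl6b and 796 for Actc1. The low levels therefore carry some sampling noise. How reads shared by near-identical genes were divided could move their values, and that was not tested.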
